A study of Caenorhabditis elegans with 2 samples.

Results

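Occupancy of LIM-6 was examined at 8 Caenorhabditis elegans genes that encode the Retinoblastoma protein, its E2F partners and the DREAM complex, out of 19973 protein-coding genes in the annotation. The genes lin-35, efl-1, dpl-1, lin-9, lin-37, lin-52, lin-53 and lin-54 were listed by their known function, and the list was selected on a measured value of lin-35, which lies at a peak among the 10 highest of the data. For each gene, all regions were taken that overlapped by at least 1 bp a window from 2 kb upstream of the gene to 1 kb past its end. The data are chromatin immunoprecipitations with an anti-GFP antibody from whole late embryos of strain OP388, genotype unc-119(ed3) III; wgIs388. Its transgene, wgIs388, encodes LIM-6 with GFP and FLAG at the C-terminus. Embryos were hermaphrodite and were collected 5 hours after egg bleaching. The 2 libraries, biological replicates 1 and 2, share strain, stage and treatment, so they form 1 group with no contrast between conditions. Occupancy refers to the tagged transgene product, and no untagged or control library was analysed here. Whole embryos were used, so strong binding in few cells and weak binding in many cannot be told apart.

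LIM-6 is a LIM homeodomain transcription factor known for its role in the differentiation of a small set of neurons, including GABA neurons. In C. elegans LIN-35 is the sole protein of the Retinoblastoma family. EFL-1 and DPL-1 form the E2F-DP heterodimer that contacts DNA. LIN-9, LIN-37, LIN-52, LIN-53 and LIN-54 make up the MuvB core, in which LIN-54 binds DNA and LIN-53 is a histone-binding protein of the RbAp48 type. Together these proteins form DREAM, a complex known for repressing cell cycle and germline genes, and several of its genes were found as class B synthetic multivulva (synMuv B) genes that restrain vulval fates.

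Relaxed lists, which hold background beside peaks, had 21953 regions in replicate 1, 27731 in replicate 2 and 25887 for the pooled libraries. Of the pooled regions, 570 passed the authors' threshold of irreproducible discovery rate (IDR) and are called reproducible here. Each region carries a signal value set by the peak caller. Median signals were 16.6 in replicate 1, 15.9 in replicate 2 and 27.9 in the pooled list, and the lowest reproducible peak had a pooled signal of 80.0, as did the next region, just outside the list. The reproducible peaks were thus the 570 highest regions by pooled signal. The name adds no separate check that the libraries agree at a given region. Read depth is unknown, so the spread between the libraries is the measure of precision. At the 570 reproducible peaks, the log2 ratio of replicate 1 over replicate 2 averaged -0.09 ± 0.48 (SD over peaks). Among other pooled regions down to rank 2000, 1402 were found in both libraries, with a ratio of -0.10 ± 0.60. Coordinates are 1-based, in the ce11 build.

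Reproducible peaks were present at 2 of the 8 genes, lin-35 and lin-54. Across all protein-coding genes, 4.68% of windows of the same kind overlapped a reproducible peak. Both peaks had their summit in the promoter window, from 1000 bp upstream to 500 bp downstream of an annotated 5′ end, where 2.61% of all genes had a reproducible summit. Because lin-35 was chosen for its peak, the count of 2 was read no further. When each peak was assigned only to its closest 5′ end, 2.72% of all genes received one, and lin-35 and lin-54 received none. A pooled relaxed region overlapped the window of 7 of the 8 genes, against 70.4% of all genes, and lay in the promoter window of the same 7, against 41.0%. The gene with none was dpl-1.

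Pooled regions in the 8 windows numbered 22, with signals from 21.3 to 301 and a median of 28.6, close to the 27.9 of all pooled regions. Of these, 13 were at or above the median of all pooled regions. Both libraries had an overlapping region at 14 of the 22 (63.6%), against 46.5% of all pooled regions. The windows held 4.25 pooled regions per 10 kb, compared with 2.87 over all protein-coding windows. This density ranged from 0.00 at dpl-1 and 1.87 at lin-54 to 8.58 at lin-37. The signal at a gene and the number of its regions thus did not go together at lin-37 and lin-54, which had 4 weak regions and 1 reproducible peak.

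**Figure D1:**
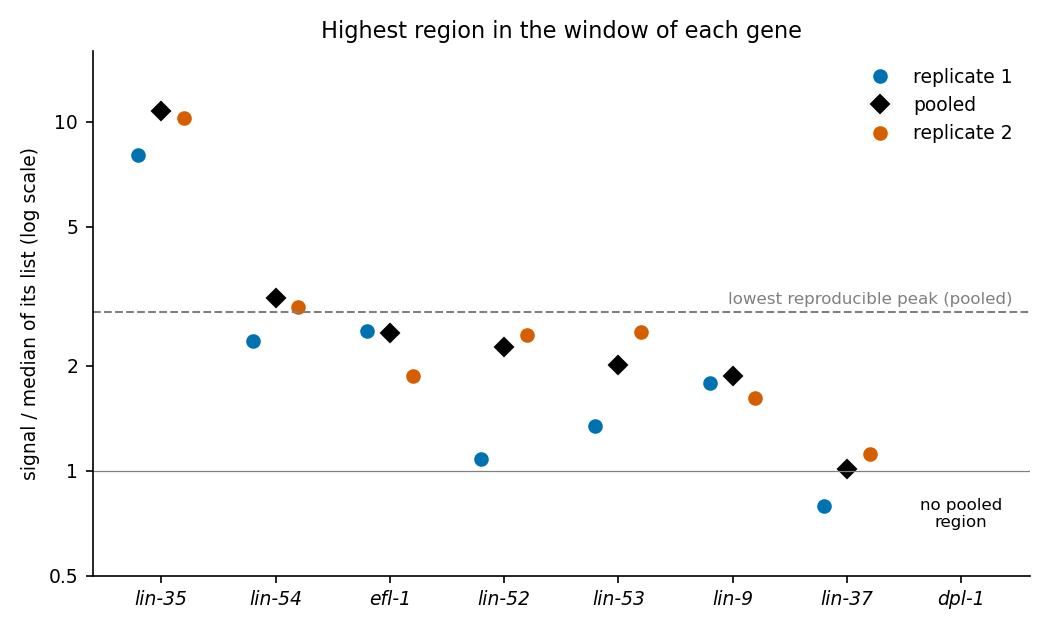
Signal of the highest pooled region in the window of each gene and of the overlapping region in each library, each divided by the median signal of its own list, on a log axis. Diamonds are pooled values, circles are single libraries, and the dashed line marks the lowest reproducible peak (2.86 times the pooled median). The values at lin-35, which was chosen for its peak, stand apart in both libraries, and dpl-1 has no pooled region.

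The peak at lin-35, the Retinoblastoma gene, lay at chromosome I, 5807381 to 5807572, in intergenic sequence. The gene spans 5807709 to 5815637 on the plus strand. The pooled signal was 301, rank 9 of the pooled list, and by this value the window ranked 20 among all protein-coding genes. The rule admitted the 10 highest peaks, and the values on either side of its limit were 294 at rank 10 and 292 at rank 11. The peak stood at a divergent promoter: the summit was 236 bp upstream of the 5′ end of lin-35 and 182 bp upstream of the nearest 5′ end of vps-51, whose product is a subunit of a vesicle tethering complex of the Golgi and endosomes. The 5′ ends of the genes are 418 bp apart. Which of the genes the occupancy concerns was not tested.

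At lin-35 the libraries gave signals of 133 in replicate 1 and 164 in replicate 2, a mean of 148 ± 21.6 (SD, n = 2). These ranked 11 and 9 in their lists, and the summits were 12 bp apart. Replicate 1 was the lower, by a log2 ratio of -0.30, within the SD of 0.48 over reproducible peaks. All 31-mers of the 201 bp around the summit were unique in the genome. The remaining 3 pooled regions in the lin-35 window were weak, with signals of 28.8, 21.5 and 23.7. They lay 882, 2922 and 8466 bp downstream of the 5′ end, in coding sequence of C32F10.4 on the opposite strand, in an intron of lin-35 and in coding sequence of hmg-3, which encodes a subunit of the histone chaperone FACT. None of these 3 had an overlapping region in both libraries, whereas the promoter peak did. Strong signal in the lin-35 window was therefore limited to the promoter peak in the lists examined.

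**Figure D2:**
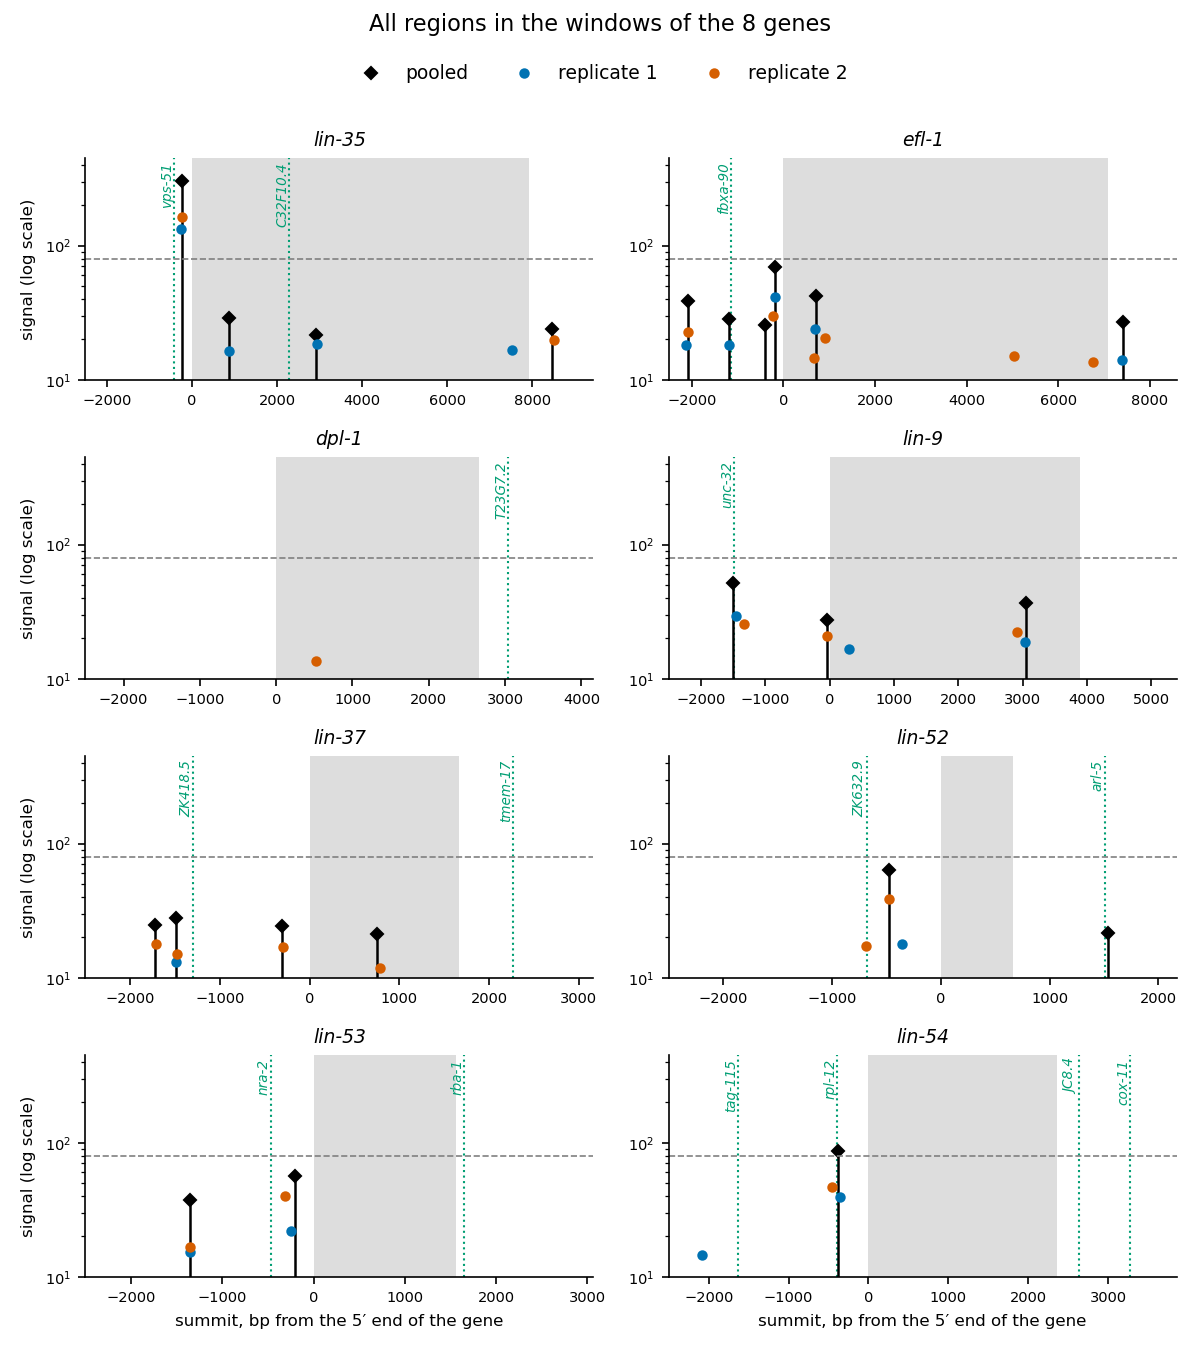
Every region in the windows of the 8 genes, by the distance of its summit from the 5′ end of the gene in bp (x axis) and its signal on a log axis (y axis). Black diamonds with stems are pooled regions, coloured circles are single libraries, grey bands are gene bodies, dotted green lines are 5′ ends of neighbouring protein-coding genes, and the dashed line is the lowest reproducible signal of 80.0. The line applies to pooled values only, and library signals are unscaled. Pooled regions above the line occur at lin-35 and lin-54, upstream of the gene in both.

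Among the MuvB core genes, lin-54 had the highest signal and the second reproducible peak of the complex. LIN-54 is the subunit that contacts CHR promoter elements, for which TTTGAA is a common form. The peak, at chromosome IV, 13240456 to 13240879, had a pooled signal of 87.4 and rank 434. The libraries had signals of 39.1 and 46.8, a mean of 43.0 ± 5.40 (SD, n = 2), with ranks 628 and 456. In replicate 1 alone it would not be among the 570 highest regions. The summit lay 376 bp upstream of lin-54 but 17 bp upstream of rpl-12, a gene for a protein of the large ribosomal subunit on the opposite strand. The summit of replicate 2 was in the 5′ UTR of rpl-12 and that of replicate 1 was 41 bp upstream of it. The genes are 392 bp apart, and the summit was nearer to rpl-12 than to lin-54 in both libraries.

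Sequence between the rpl-12 5′ end and 100 bp past the summit is shown because it holds an E2F-type and a CHR-type match, at chrIV:13240652-13240768 of ce11, plus strand. Capitals mark matches, here to TTTGAA and TTTCGCGC, each read on the opposite strand.
lin-54: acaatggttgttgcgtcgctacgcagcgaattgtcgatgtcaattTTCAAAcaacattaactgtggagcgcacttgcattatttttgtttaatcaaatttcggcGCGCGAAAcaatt

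The TTTGAA match was centred 32 bp, and the TTTCGCGC match 92 bp, from the summit towards lin-54. TTTCGCGC lay within 100 bp of 2.81% of reproducible summits and 1.51% of all pooled summits, TTTGAA within 100 bp of 33.0% and 35.0%. A match of letters describes the sequence and does not show binding of a factor.

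The E2F gene efl-1 had the highest signal of the 6 members without a reproducible peak. Its region at chromosome V, 16965638 to 16966061, had a pooled signal of 69.5 and rank 839, below the lowest reproducible value of 80.0, and a −log10 q of 2.38. The summit lay 175 bp upstream of efl-1, and no other 5′ end was within 1000 bp of that of efl-1, although the window of the F-box gene fbxa-90 reached it from 964 bp away. Signals were 41.5 in replicate 1 and 29.7 in replicate 2, a mean of 35.6 ± 8.37 (SD, n = 2), with ranks 548 and 1863. Replicate 1 was the higher library, and in it alone this region would be among the 570 highest. A second region, 716 bp inside the gene in an intron, had a pooled signal of 42.4, with an overlapping region in both libraries. The 4 others had pooled signals from 25.4 to 38.6.

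The 201 bp centred on the efl-1 summit are shown because the gene encodes an E2F protein and its own upstream region holds an E2F-type match, at chrV:16965750-16965950 of ce11, minus strand. Capitals mark TTTCCCGC and, on the opposite strand, TTTGAA.
efl-1: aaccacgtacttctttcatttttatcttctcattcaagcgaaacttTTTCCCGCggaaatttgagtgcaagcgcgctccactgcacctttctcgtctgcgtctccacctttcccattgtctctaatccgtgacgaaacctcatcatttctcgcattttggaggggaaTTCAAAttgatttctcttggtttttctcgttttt

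TTTCCCGC was centred 50 bp upstream of the summit and 226 bp upstream of the 5′ end of efl-1, and TTTGAA 106 bp upstream of that end. TTTCCCGC occurred within 100 bp of 2.11% of reproducible and 1.38% of all pooled summits.

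For dpl-1, the gene of the DP partner of EFL-1, no pooled region overlapped the window. The gene lies on chromosome II, 9169910 to 9172565, inside T23G7.2 on the opposite strand. Replicate 1 had no region there, and replicate 2 had 1 of signal 13.5, in coding sequence 525 bp downstream of the 5′ end, which is below the median of that list. The relaxed lists include background, and an absent region means that no signal reached the limit of the list, 20.5 for the pooled data. The genes for the partners of the heterodimer, efl-1 and dpl-1, therefore differed in whether a pooled region was listed at all.

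The lin-52 gene, for a small MuvB subunit, had a pooled region of signal 63.5 (rank 1074, −log10 q of 2.01) at chromosome III, 9825015 to 9825438. The libraries differed: 18.0 in replicate 1, near the median of its list, and 38.9 in replicate 2, a mean of 28.5 ± 14.8 (SD, n = 2). The log2 ratio of -1.12 was the widest among the members, and the library summits were 117 bp apart. Its summit fell in coding sequence of ZK632.9, an upstream neighbour on the same strand that ends 126 bp before lin-52 begins. The summit was 477 bp upstream of lin-52 and 205 bp downstream of the 5′ end of ZK632.9.

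The lin-9 gene, for another core subunit, had its highest region at a neighbour rather than at its own 5′ end. This region, at chromosome III, 8905420 to 8905843, had a pooled signal of 52.2 and rank 1859, and signals of 29.6 and 25.8 in the libraries, a mean of 27.7 ± 2.73 (SD, n = 2). Its summit was 1501 bp upstream of lin-9 and 15 bp downstream of a 5′ end of unc-32, which encodes a subunit of the vacuolar proton pump. In the single libraries the summits were upstream of unc-32, by 32 bp in replicate 1 and 153 bp in replicate 2, and were 121 bp apart. The noncoding RNA gene ZK637.19 also lay within 250 bp of the pooled summit. The region at the 5′ end of lin-9 itself, 47 bp upstream, had a pooled signal of 27.6, near the pooled median, and in replicate 1 the nearest region had its summit 305 bp inside the gene. A further region, 3048 bp into the gene in an intron, had a pooled signal of 36.7 and was present in both libraries.

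At lin-37, also of the MuvB core, signals were near the median of each list or under it. Its 4 pooled regions had signals of 21.3, 24.5, 24.6 and 28.1, and the highest, at chromosome III, 7073829 to 7074252, ranked 12779 of 25887. The overlapping region in replicate 1 had a signal of 13.1 and rank 20232, and in replicate 2 the region with the closest summit had 15.0 and rank 16067. A stronger replicate 2 region of 17.9 also overlapped, but its summit was 225 bp from that of replicate 1, at the adjacent pooled region of signal 24.6. The value of 17.9, the highest overlapping one, stands for lin-37 in comparisons between genes. The region lay 1489 bp upstream of lin-37 and 190 bp upstream of ZK418.5, a gene on the same strand whose end is separated from lin-37 by 60 bp. The region nearest to the 5′ end of lin-37, 307 bp upstream in coding sequence of ZK418.5, had a signal of 24.5 and no overlapping region in replicate 1.

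The 201 bp around that summit are shown as a case in which TTTGAA recurs at a weak region, at chrIII:7073941-7074141 of ce11, minus strand. Capitals mark its matches on either strand.
lin-37: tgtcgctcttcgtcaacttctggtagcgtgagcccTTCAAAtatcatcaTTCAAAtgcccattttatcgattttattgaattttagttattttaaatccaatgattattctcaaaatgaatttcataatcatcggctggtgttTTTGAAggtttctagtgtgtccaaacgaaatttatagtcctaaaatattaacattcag

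With 3 matches, this window held more copies of TTTGAA than that of any other member, at the lowest of the 7 pooled signals.

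The lin-53 gene, on chromosome I, 9618196 to 9619760, encodes the histone-binding subunit that also serves in other chromatin complexes. Its promoter region, 9619751 to 9620174, had a pooled signal of 56.2 and rank 1530, with signals of 22.1 in replicate 1 and 39.8 in replicate 2, a mean of 30.9 ± 12.5 (SD, n = 2). As at lin-52, replicate 2 was higher, with a log2 ratio of -0.85. The ratios of lin-53 and lin-52 both lay outside the -0.10 ± 0.60 (SD over regions) of other pooled regions down to rank 2000. The summit lay 203 bp upstream of lin-53 and 264 bp upstream of nra-2, which is transcribed in the opposite direction and encodes a nicalin-type membrane protein. In both single libraries the summit was nearer to nra-2, at 222 and 151 bp. The paralog rba-1 begins 88 bp after the end of lin-53 on the same strand, and the region of highest signal in its window was this same one, 1856 bp upstream of rba-1. The 201 bp around the summit contained TTTCCCGC and TTTGAA.

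In order of pooled signal, lin-35 was followed by lin-54, efl-1, lin-52, lin-53, lin-9 and lin-37. Library signals of lin-35, 133 and 164, did not overlap those of any other member. Because lin-35 was chosen for its peak, this is a description only. In unscaled signal, lin-54 (39.1 and 46.8) overlapped the ranges of efl-1 (29.7 to 41.5) and lin-53 (22.1 to 39.8). It lay above lin-52 (18.0 to 38.9) and lin-9 (25.8 to 29.6). As multiples of the list median, lin-54 (2.36 and 2.94) overlapped lin-52 (1.08 and 2.45) as well. The ranges of efl-1, lin-52 and lin-53 overlapped each other, and those of lin-52 and lin-53 overlapped that of lin-9, while the lower value of efl-1, 29.7, was just above the higher of lin-9, 29.6. With 2 libraries, gaps this narrow do not settle the order of these genes. Library signals of lin-37, 13.1 and 17.9, reached to just under the lower value of lin-52, 18.0. As multiples of the list median, lin-37 (0.79 and 1.12) reached above the lower value of lin-52, 1.08. The median of the highest pooled signal over the 8 windows, with dpl-1 as 0, was 59.9, against 27.7 over all protein-coding genes. This median includes the lin-35 value for which the list was selected, so it too is a description only.

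**Figure D3:**
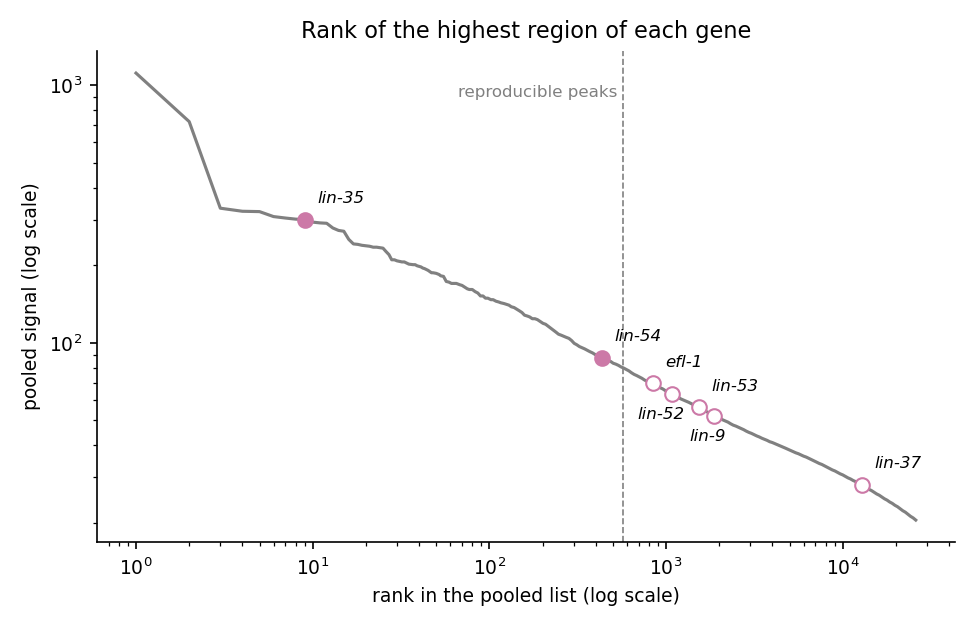
Pooled signal against rank for the pooled list (grey line, both axes logarithmic), with the highest region of each gene as a circle. Filled circles are reproducible peaks, and the dashed line marks rank 570. The lin-35 peak is on the upper part of the curve at rank 9, 5 genes lie between ranks 434 and 1859, and lin-37 is near the middle of the list.

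The highest regions often lay at a neighbour. At 5 of the 7 genes with a pooled region, the 5′ end nearest to the summit of the highest region belonged to another gene: vps-51, rpl-12, unc-32, ZK418.5 and ZK632.9. At lin-35, lin-54 and lin-53 the neighbour is divergent and has its 5′ end within 1000 bp. Among all reproducible peaks, 139 of 570 (24.4%) had summits in promoter windows on both strands, and the lin-35 and lin-54 peaks were of this kind. At lin-52 and lin-37 the neighbour is upstream on the same strand.

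Sequence within 100 bp of the 7 summits was searched on both strands for 7 motifs. TAATTA, a homeodomain core, was in none of the 7 windows, and lay within 100 bp of 8.25% of reproducible summits. It was in 2 of 7 within 250 bp, and in 1 of 7 around the summits of replicate 2. GAGAGA was at lin-35, where it was centred 44 bp upstream of the summit, and at lin-9 (34.6% of reproducible and 17.6% of all pooled summits). TTTGAA was in 6 of the 7 windows, all but that of lin-35, against 33.0% of reproducible and 35.0% of all pooled windows. It was in 5 of 7 around the summits of replicate 1, in 4 around those of replicate 2 and in 4 within 50 bp of the pooled summits. At least 1 of the 3 E2F-type sites TTTCCCGC, TTTGGCGC and TTTCGCGC was in 3 of the 7, those of efl-1, lin-53 and lin-54, and in 5.61% of reproducible and 3.78% of all pooled windows. These matches moved with the summit: around library summits TTTCCCGC was in 1 window in each library in place of 2, and TTTCGCGC in 1 for replicate 1 and 0 for replicate 2. TTCGAA, another CHR form, and TTTGGCGC were in none (12.1% and 0.877% of reproducible windows), although TTCGAA was in 1 of 7 within 250 bp and in 1 of 7 around the summits of replicate 2. GC content of the 7 windows ranged from 31.8% at lin-37 to 48.3% at lin-52, and was 36.3% at lin-35, compared with 45.1 ± 7.54% over reproducible peaks (SD over peaks). The members were chosen by function and peak, so these counts are descriptions, and absence from a window says only that these letters were not there.

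The reproducible peaks most like that of lin-35 were sought by the distance in log2 pooled signal and log2 library ratio, over 2 libraries. The closest, at a distance of 0.05, was at chromosome V, 8500471 to 8500669, in no promoter window, 5694 bp downstream of the nearest 5′ end, that of pxn-1, with a pooled signal of 291 and library signals of 129 and 156. The next, at 0.13, was shared by Y71G12B.30 and chaf-2, with signals of 302 pooled and 128 and 171 in the libraries. Another, at 0.14, was shared by K01G5.10 and tasp-1, the gene of a taspase-type protease, with 292 pooled and 125 and 169. The chaf-2 gene encodes a subunit of the chromatin assembly factor CAF-1, which in other animals includes a protein of the LIN-53 family.

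Of 42 related genes, 40 had a pooled region in the window, against 70.4% of all genes. A reproducible peak was present at 4 of the 42 (9.52%, against 4.68% of all genes). The median of the highest pooled signals of the 42 was 43.0. These lists were drawn up with earlier results of these data known, so the counts and the median are descriptions only. In the list of histone chaperone and Polycomb-like genes, 1 of 6 had a reproducible peak, chaf-2, at rank 8 and thus next to lin-35. In the list of synMuv B genes and chromatin partners outside DREAM, 2 of 17 had one, and 1 of these, ark-1, does not encode a chromatin protein. The peak in the window of lin-61, which encodes a protein with MBT repeats that binds histone H3, had a pooled signal of 138 and library signals of 61.0 and 80.1. It was shared with bub-1, the gene of a spindle checkpoint kinase, whose 5′ end was the nearer. The peak in the window of ark-1, for a tyrosine kinase that restrains LET-23 receptor signalling, had a pooled signal of 110. Its summit lay 9342 bp downstream of the 5′ end of ark-1, in no promoter window. The nearest 5′ end was that of efa-6, with the summit 6956 bp upstream of it.

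In the list of E2F, cyclin and CDK genes, 1 of 15 had a reproducible peak. This was cye-1, for cyclin E, a partner of CDK2-type kinases at the start of S phase, with a pooled signal of 136, library signals of 51.6 and 87.3 and a summit 962 bp downstream of a 5′ end. None of 4 synMuv A genes had one. The strongest of the other genes were dcp-66 (pooled signal 75.1), a NuRD-type gene, lin-13 (74.4), for a zinc finger protein that recruits HPL-2, and cki-2 (72.8), for a CDK inhibitor. No pooled region was listed for hpl-2, a heterochromatin protein gene, or for cdc-25.1, a phosphatase gene. The other E2F-type genes, efl-2 and efl-3, had highest pooled signals of 22.8 and 51.3, below the 69.5 of efl-1.

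**Figure D4:**
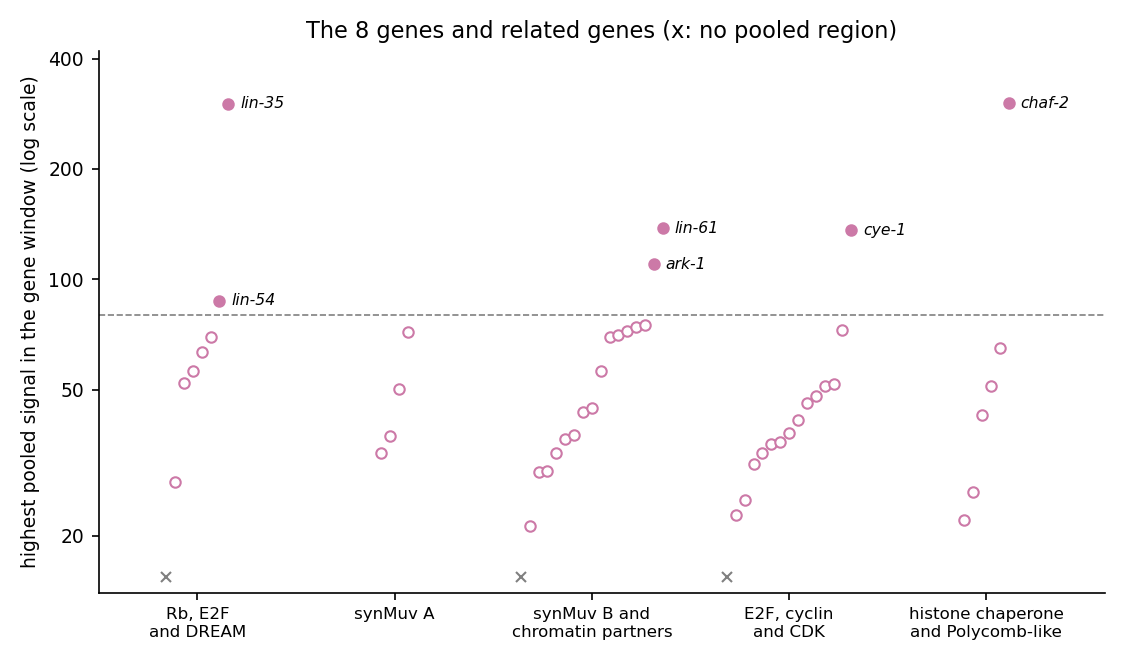
Highest pooled signal in the window of each of the 8 genes and of 42 related genes in 4 lists (log axis). Each circle is a gene, filled circles have a reproducible peak, crosses have no pooled region, and the dashed line marks the lowest reproducible signal of 80.0. The lin-35 and chaf-2 peaks, at 301 and 302, stand above all other genes shown, and the remaining filled circles lie between 87.4 and 138. The lin-35 gene was chosen for its peak, and the lists of related genes were drawn up with earlier results of these data known.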

How the data were processed

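Peak lists of 2 ChIP-seq libraries and of both pooled were used as deposited, in ce11. Per the deposited notes, the authors made each relaxed list from an alignment together with a control, and the reproducible list passed an IDR threshold. Which aligner and peak caller were used is not given in the sources. The deposited signal value per region is the peak caller's, on a scale that is not stated, and the authors also deposited a −log10 q-value for each. Pooled and library signals were compared in scale only as multiples of the list median. All 570 reproducible peaks were found unchanged in the pooled list. From the ce10 files only the number of reproducible peaks was taken, 858.

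Gene models were those of Ensembl release 115 on WBcel235, which is the ce11 assembly, and sequence was read from the RefSeq copy of that assembly. A library region was matched to a pooled region by overlap of at least 1 bp, taking the highest. Uniqueness was the share of 31-mers occurring once. The members, lists and motifs were chosen with earlier results of these data known, and no test was run. Named genes were the members, neighbours sharing their promoter, related genes with a reproducible peak and the 3 next by signal, and the 3 peaks most like that of lin-35; any others were named after their values were seen. The assignment of regions to genes was checked on planted regions. Python 3.11.15, numpy 2.4.6, pandas 2.3.3 and matplotlib 3.10.9 were used. Sequences of lin-35 and lin-53 are not shown here.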

Additional observations from a re-analysis of the deposited data

How the results depend on the processing

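The number of members with a reproducible peak, 2, was 0 when peaks were given to the nearest 5′ end, because vps-51 and rpl-12 are nearer, and 1 (lin-35) in the highest 50% of reproducible peaks. It was 3, with efl-1, in as many pooled regions as the ce10 list holds. IDR needs both libraries, so with 1 left out the 570 highest regions of the other library stood in. Such a rank cut in 1 library does not check the reproducible calls, which are themselves the 570 highest regions by pooled signal. By it the count was 2 with either library left out. The members were lin-35 and efl-1 without replicate 2, and lin-35 and lin-54 without replicate 1. Related genes with a peak, 4 at first, numbered 2 by promoter window, 2 by nearest 5′ end and 11 in the longer list, and from 5 to 8 with 1 library left out. The background share of 4.68% was 2.61% by promoter window, 2.72% by nearest 5′ end and 2.59% for the highest 50%, rules that admit fewer regions or genes by construction. It was 6.61% in the longer list. With 1 library left out it was 4.58% and 4.60%, where the number of regions was held at 570, so a similar share follows largely from that number. Of the 22 pooled regions, 13 were at or above the median signal. The signal at lin-35, 10.75 times the pooled median, was 8.05 to 10.29 times the list median with 1 library left out. The remaining 24 of 35 alternatives for these results stayed within 1.5 times, or within 1 SD of the libraries. For single members 5 of 18 moved by more than that SD, among them lin-9, at 0.99 in place of 1.87 times the median by promoter window, and lin-52, at 1.08 in place of 2.27 without replicate 2. That SD comes from the same 2 libraries, so genes whose libraries differ more are more easily counted as unmoved. At lin-53, 1.34 in place of 2.01 without replicate 2 counted as unmoved (SD 0.82). At lin-9, 1.62 in place of 1.87 without replicate 1 counted as moved (SD 0.12). Within 50 bp of the pooled summit, 0 E2F-type matches lay, against 3 windows within 100 bp. The effect of depth is unknown without read counts. No paired analysis was possible because there is 1 group.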

Other observations

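The lin-35 peak was 192 bp wide, while 424 bp was the usual width in the pooled list. Of the 25887 pooled regions, 49 (0.189%) were narrower than 424 bp, and all 49 were among the 570 reproducible peaks, 9 of them among the 10 highest and 14 among the 20 highest. At 192 bp the lin-35 peak was the narrowest of those 20. In the library lists the same region had the usual widths of 416 and 430 bp. The other 6 member regions of highest signal were 424 bp wide.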
